A study of Homo sapiens with 4 samples.

Results

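The genes described here are 35 genes of cholesterol and fatty acid synthesis and of sterol sensing, transport and uptake control. Most are controlled by sterol regulatory element binding proteins (SREBPs) or control those proteins. MYLIP and ABCA1 are instead targets of the oxysterol receptor LXR. They were chosen by symbol from a list of sterol synthesis, sterol sensing, transport and fatty acid genes, and all 35 were found among the 20510 genes of the deposited table. Of these, 18 encode enzymes of sterol synthesis, 8 belong to fatty acid and glycerolipid synthesis, and 9 act in sterol sensing, transport or uptake control. The cells were K1, a human line established from papillary thyroid carcinoma and grown in medium with fetal bovine serum, a source of lipoprotein cholesterol. All cells carried a short hairpin RNA: a control in the 2 shCtrl libraries and 1 that targets TBX3 in the 2 shTBX3 libraries. TBX3 is a T-box transcription factor, and the study's title concerns its part in proliferation through the Polycomb complex PRC2. Only 1 hairpin against TBX3 and 1 line are named in the labels, so an effect of the hairpin other than on TBX3 cannot be told apart from an effect of TBX3.

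SREBPs are made as membrane proteins of the endoplasmic reticulum, where SCAP carries them and INSIG proteins hold them back when sterols are plentiful. When sterols are scarce the complex moves to the Golgi, proteases release the active factor, and the genes of sterol synthesis and uptake are transcribed, INSIG1 among them. SREBF2 encodes the form known mainly for sterol genes. SREBF1 encodes the forms known mainly for fatty acid genes, and it is itself a target of the oxysterol receptor LXR.

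The active factors bind promoter DNA together with the CCAAT-binding factor NF-Y, so promoters are shown for the 3 genes of the list with the smallest p-values below and for SREBF2. RefSeq promoter entries (GRCh38.p14) were found for 31 of the 35 genes, and ACAT2, FDFT1, SQLE and FASN had none. Each line gives the 250 bases before the start of transcription, 5′ to 3′ on the strand of the gene, and capitals mark a match to any of 4 motifs. The motifs were TCACNCCAC for a sterol regulatory element, CCAAT for the NF-Y box, TCACGTGA for an E-box and AGGTGTGA for a T-box core, each searched on both strands.
HMGCS1 (chr5:43313413-43313662, minus strand): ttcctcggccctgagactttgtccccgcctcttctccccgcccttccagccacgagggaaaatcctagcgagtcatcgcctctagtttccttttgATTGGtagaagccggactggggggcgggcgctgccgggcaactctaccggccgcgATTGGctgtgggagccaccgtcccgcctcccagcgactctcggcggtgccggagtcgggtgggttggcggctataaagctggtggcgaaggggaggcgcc
INSIG1 (chr7:155297628-155297877, plus strand): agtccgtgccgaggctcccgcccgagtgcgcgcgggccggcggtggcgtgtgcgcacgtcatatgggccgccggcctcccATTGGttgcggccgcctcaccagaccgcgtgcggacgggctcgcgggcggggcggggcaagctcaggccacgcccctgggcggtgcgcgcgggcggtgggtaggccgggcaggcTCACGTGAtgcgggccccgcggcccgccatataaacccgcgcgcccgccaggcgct
DHCR7 (chr11:71448394-71448643, minus strand): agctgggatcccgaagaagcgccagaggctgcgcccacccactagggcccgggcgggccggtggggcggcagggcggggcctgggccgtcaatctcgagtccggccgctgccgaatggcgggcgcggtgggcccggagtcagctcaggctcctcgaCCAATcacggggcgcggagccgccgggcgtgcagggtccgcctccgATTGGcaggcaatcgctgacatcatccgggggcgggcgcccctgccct
SREBF2 (chr22:41832855-41833104, plus strand): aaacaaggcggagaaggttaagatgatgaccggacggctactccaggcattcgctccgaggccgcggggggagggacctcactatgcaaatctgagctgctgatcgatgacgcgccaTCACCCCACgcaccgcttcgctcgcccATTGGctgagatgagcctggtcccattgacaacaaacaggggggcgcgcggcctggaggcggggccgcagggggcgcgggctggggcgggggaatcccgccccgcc

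Where a gene had more than 1 entry, the entry with the most matches is shown. In these 250 bases the HMGCS1 and DHCR7 promoters each held 2 NF-Y boxes, written CCAAT or, on the other strand, ATTGG. Each of these 2 genes also had an entry not shown (chr5:43313132-43313431 and chr11:71448994-71449293), which matched none of the motifs. The INSIG1 promoter held 1 NF-Y box and 1 E-box. The SREBF2 promoter held 1 NF-Y box and the only match to TCACNCCAC among the list. Over the whole window of 300 bases, which runs to 50 bases past the start, CCAAT was present in 25 of the 43 promoter entries of the list (58.1%) and in 34.6% of all 35116 entries. By gene, 13 of 15 sterol synthesis genes and 4 of 7 fatty acid genes with an entry had at least 1 window with CCAAT, as did 39.7% of all 27305 genes. TCACNCCAC occurred in 1.13% of all entries and TCACGTGA in 0.98%. AGGTGTGA, the T-box core, occurred in 0.98% of all entries and in 0 of the 43 of the list. A match is a description of the letters and no match says only that these letters are not in the window.

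RNA was measured over whole cultures, so fewer cells that express a gene and less RNA per cell cannot be told apart. Values are FPKM, fragments scaled to transcript length and to the library total, so levels can be compared between genes. From the whole steps in the FPKM of microRNA genes, the libraries rested on about 8580000 and 8760000 fragments in shCtrl and 8590000 and 8750000 in shTBX3. With these depths and the length of 1 transcript per gene, 30 of the 34 genes tested rested on at least 100 fragments in every library, from 58 at the lowest (PMVK) to 19794 at the highest (FASN). Those are estimates, and counting error is only part of the spread. TBX3 itself stood at 48.94 and 54.77 in shCtrl, against 27.81 and 36.99 in shTBX3. Its level in the knockdown libraries was 0.625 of the control mean, with a limma adjusted p of 0.428. Of 11 thyroid follicular markers, 7 stayed under an FPKM of 1 in every library, TG, TSHR, NKX2-1 and FOXE1 among them. SLC5A5, HHEX, PAX8 and SLC26A4 reached 1 in at least 1 library, with no value above 3.28. The list summed to between 9.1 and 9.49 per library. The 9 intestinal markers summed to between 195.21 and 248.36 in shCtrl and between 197.26 and 207.62 in shTBX3, most of it from CDX2 (116.78 to 147.75). CDH17 (32.61 to 45.08), KRT20 (18.30 to 36.21) and VIL1 (8.86 to 12.12) also had measurable levels. CDX1, FABP1, GPA33 and MUC2 stayed under 1 in every library. Within that list LGALS4 stood at 4.33 and 5.59 in shCtrl, against 1.31 and 1.39 in shTBX3, with a limma adjusted p of 0.102. Most of the defining markers of the labelled tissue were thus near 0. Markers of fat cells, hepatocytes, fibroblasts and blood cells summed to at most 6.76 in any library.

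Between the 2 groups the test was limma on log2(FPKM + 1) over 13924 genes, with a threshold of 0.05 on the p adjusted over all of them. Of the 35 genes, 34 had an FPKM of at least 1 in every library and were tested, and ABCA1 was not. None of the 34 passed limma's threshold, against 25 genes or 0.180% of all genes tested. At an unadjusted p under 0.05, HMGCS1 and INSIG1 were higher in shTBX3 and DHCR7 was lower. That is 5.88% of the list higher, with 2.03% of all genes, and 2.94% lower, with 4.65% of all genes. Both shTBX3 values lay above both shCtrl values in 10 of the 34 genes (29.4%), with 14.8% of all genes, and below them in 3 (8.82%), with 19.7% of all genes. Differences named below are therefore sizes and orders of values, not calls.

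**Figure D1:**
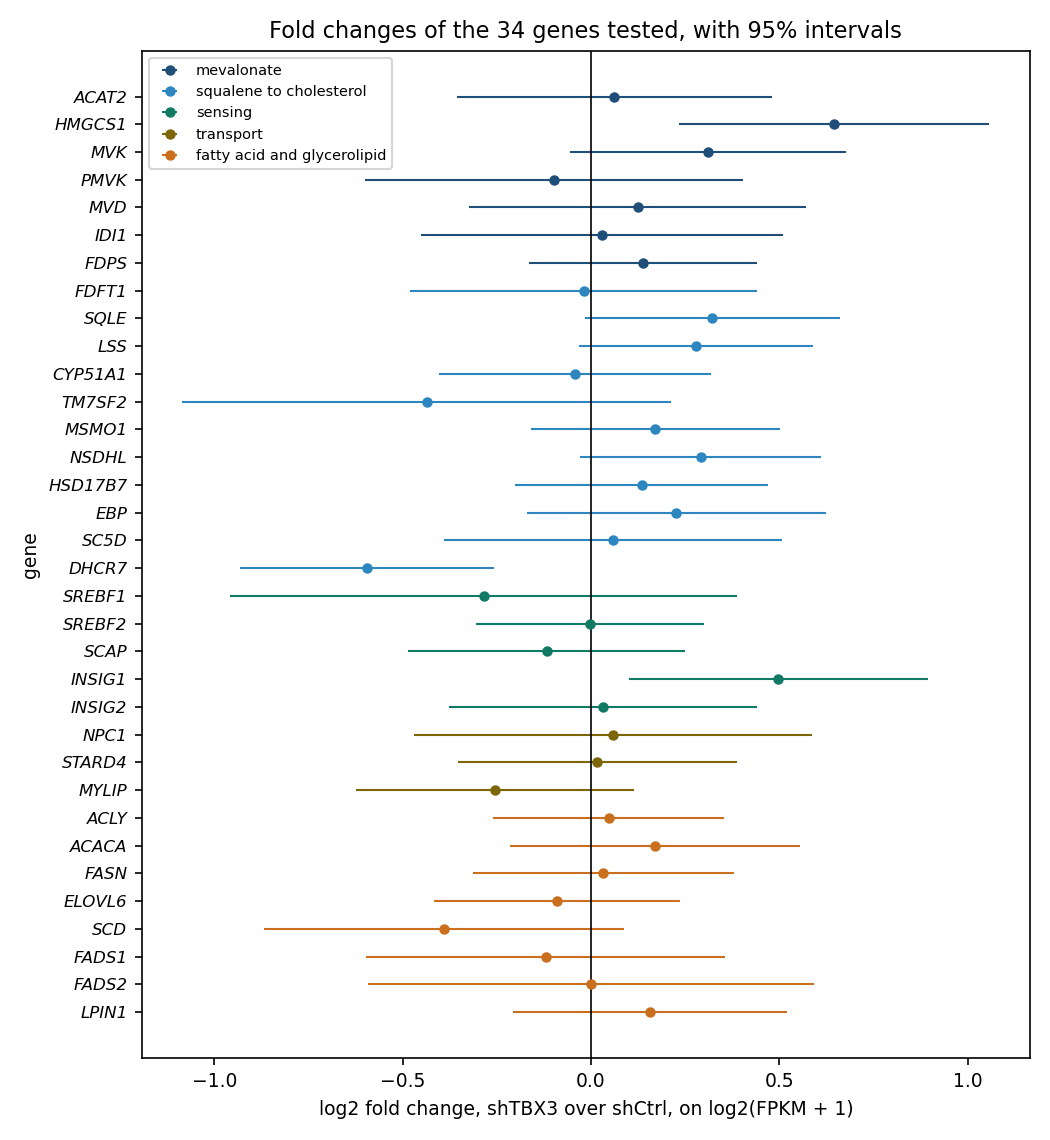
Log2 fold change of shTBX3 over shCtrl on the log2(FPKM + 1) scale (x axis) for the 34 genes tested (y axis), coloured by role; points are limma estimates and bars 95% intervals. The intervals of HMGCS1 and INSIG1 lie above 0 and that of DHCR7 below 0, while the other 31 cross 0, and none of the 34 passed the threshold after adjustment over all genes.

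The mevalonate part of the pathway turns acetyl-CoA into the isoprenoid building blocks of sterols. Its 7 genes had a median log2 fold change of 0.12, with −0.01 over all genes, and 6 of 7 were higher in shTBX3. Of all genes tested, 46.9% were higher, which is the share to set beside this and the later counts of direction. HMGCS1, the cytosolic HMG-CoA synthase (GRCh37 chromosome 5, 43287572 to 43313614, minus strand), had an FPKM of 24.68 and 22.50 in shCtrl, against 43.12 and 32.46 in shTBX3. The shTBX3 values did not overlap the shCtrl values, and the shTBX3 libraries differed from each other by more than the shCtrl libraries did. The group means of 23.6 ± 1.54 and 37.8 ± 7.54 (SD, n = 2 each) had a ratio of 1.60. The log2 fold change was 0.65 ± 0.17 (SE) with a 95% interval from 0.23 to 1.06 and a limma adjusted p of 0.458. HMGCS1 rested on an estimated 1047 to 1968 fragments per library, and the annotation places an exon of a non-coding gene on the opposite strand over its exons.

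MVK, mevalonate kinase, had 16.38 and 13.65 in shCtrl, against 19.94 and 17.70 in shTBX3. All values of the knockdown group were above those of the control group, with a log2 fold change of 0.31 ± 0.15 (SE) and a limma adjusted p of 0.816. FDPS, which makes farnesyl diphosphate and was the most abundant sterol gene of the list, stood at 159.41 and 143.24 in shCtrl, against 173.03 and 160.05 in shTBX3. Its groups did not overlap either, by a margin of 160.05 against 159.41. FDPS shares sequence with the pseudogene FDPSP2, which was listed at 5.74 to 7.40, so the split of fragments between them is uncertain.

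The other 4 genes of this segment overlapped between the groups. ACAT2, the cytosolic acetoacetyl-CoA thiolase, had means of 35.8 and 37.8, and its shTBX3 libraries at 43.59 and 32.10 lay on either side of both shCtrl libraries. MVD, the decarboxylase, had means of 19.9 and 21.8, and IDI1, the isomerase, 21.8 and 22.4. In both genes the replicate 1 library was the higher of its pair in each group. PMVK, phosphomevalonate kinase, was the 1 gene of the 7 with a negative log2 fold change, −0.10, with values of 10.13 and 7.15 in shCtrl, against 6.95 and 8.95 in shTBX3.

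From squalene to cholesterol, 7 of 11 genes were higher and 4 lower, with a median log2 fold change of 0.14. SQLE, squalene epoxidase, stood at 25.48 and 27.65 in shCtrl, against 36.14 and 30.93 in shTBX3. LSS, which closes the ring to lanosterol, stood at 43.49 and 38.41 in shCtrl, against 49.64 and 49.95 in shTBX3. NSDHL, a C4 demethylation enzyme, stood at 20.64 and 19.54 in shCtrl, against 26.24 and 23.42 in shTBX3. In each of these 3 enzymes both shTBX3 values lay above both shCtrl values, by ratios of means of 1.26, 1.22 and 1.24. Their limma adjusted p lay between 0.774 for SQLE and 0.801 for LSS. MSMO1, the C4 methylsterol oxidase, had the same order (35.61 and 33.04 against 41.66 and 36.03) with a ratio of 1.13.

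DHCR7 went the other way. It encodes 7-dehydrocholesterol reductase, the last step of the Kandutsch-Russell route (GRCh37 chromosome 11, 71139239 to 71163914, minus strand). Its FPKM was 69.72 and 60.10 in shCtrl, against 44.92 and 40.26 in shTBX3. The groups were apart by more than the difference within either, with means of 64.9 ± 6.80 and 42.6 ± 3.29 (SD, n = 2 each), so the shTBX3 mean was 1.52-fold lower. The log2 fold change was −0.59 ± 0.14 (SE), with a 95% interval from −0.93 to −0.26 and a limma adjusted p of 0.362, the smallest of the list. No exon of another annotated gene lay over its exons, nor over those of INSIG1. Of the 35 genes, 15 had such an overlap, HMGCS1, LSS, ACAT2 and SREBF1 among them. In CYP51A1 and EBP it was with a protein-coding gene on the same strand.

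Among the remaining enzymes, TM7SF2, a sterol C14 reductase, had a log2 fold change of −0.44 ± 0.27 (SE) with overlapping groups. Its values were 26.17 and 40.16 in shCtrl, against 19.24 and 29.19 in shTBX3, and replicate 2 was 1.53-fold and 1.52-fold above replicate 1 in the respective groups. FDFT1, squalene synthase, ranged from 70.19 to 100.20 within shCtrl, with both shTBX3 values (87.19 and 78.52) between. EBP, the sterol isomerase, had means of 59.3 and 69.1, HSD17B7, a ketosteroid reductase, 16.1 and 17.8, SC5D, the C5 desaturase, 11.9 and 12.5, and CYP51A1, the lanosterol demethylase, 41.0 and 39.9. All 4 overlapped between the groups. HSD17B7 shares sequence with the pseudogene HSD17B7P2, listed at 3.15 to 5.38.

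**Figure D2:**
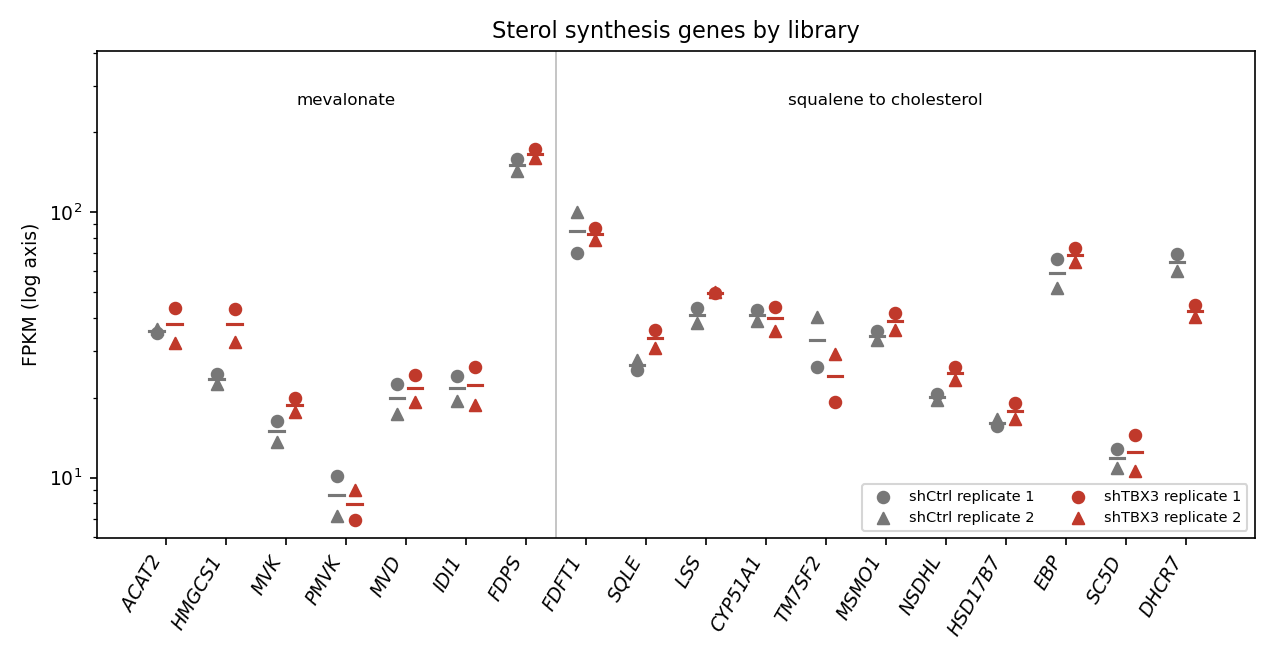
FPKM (log axis) of the 18 sterol synthesis genes in the 4 libraries, shCtrl in grey and shTBX3 in red, replicate 1 as circles and replicate 2 as triangles; bars are group means. HMGCS1 has both red points above both grey points (32.46 and 43.12 against 22.50 and 24.68), and DHCR7 has both below (40.26 and 44.92 against 60.10 and 69.72).

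Of the sensing genes, INSIG1 differed most. INSIG1 holds SCAP in the endoplasmic reticulum when sterols are plentiful (GRCh37 chromosome 7, 155089486 to 155101945, plus strand). It stood at 28.73 and 34.92 in shCtrl, against 40.81 and 49.91 in shTBX3. The groups did not overlap, and in each the replicate 2 library was the higher, by 1.22-fold in both. The group means of 31.8 ± 4.38 and 45.4 ± 6.43 (SD, n = 2 each) had a ratio of 1.43. The log2 fold change was 0.50 ± 0.16 (SE), with a 95% interval from 0.10 to 0.90 and a limma adjusted p of 0.601.

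INSIG2, the related protein not known to depend on SREBP in the same way, was expressed far below INSIG1. Its values were 3 and 2.52 in shCtrl, against 2.76 and 2.91 in shTBX3, on an estimated 78 to 91 fragments. The groups overlapped and the 95% interval of its log2 fold change ran from −0.38 to 0.44.

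SREBF2 had 61.46 and 65.88 in shCtrl, against 60.74 and 66.40 in shTBX3. Its log2 fold change was −0.00 with a 95% interval from −0.30 to 0.30, and the range of shTBX3 contained both shCtrl values. SCAP stood at 23.57 and 27.23 in shCtrl, against 21.32 and 25.42 in shTBX3, with a log2 fold change of −0.12 and an interval from −0.48 to 0.25. SREBF1 stood at 74.69 and 115.42 in shCtrl, against 61.06 and 94.58 in shTBX3. At each replicate number its shTBX3 value was the lower, but the difference between replicates was larger than that between groups. The log2 fold change of SREBF1 was −0.29 ± 0.28 (SE), and it was 0.03 without shCtrl replicate 2 or without shTBX3 replicate 1. The table gives 1 value per gene, so the SREBP-1a and SREBP-1c transcripts of SREBF1 are not separated.

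Sterol transport and uptake control held 4 genes. MYLIP, an LXR-induced ubiquitin ligase that degrades lipoprotein receptors, stood at 8.21 and 9.09 in shCtrl, against 6.48 and 7.72 in shTBX3. Its groups did not overlap, with a log2 fold change of −0.26 ± 0.15 (SE) and a limma adjusted p of 0.871. NPC1, which exports cholesterol from lysosomes, stood at 5.74 and 8.66 against 6.58 and 8.31, and the shTBX3 values lay within the range of shCtrl. The log2 fold change of NPC1 was 0.06 and turned negative without shCtrl replicate 1 (−0.20) or without shTBX3 replicate 2 (−0.09). STARD4, a cytosolic sterol carrier, stood at 8.42 and 9.68 against 8.45 and 9.90. ABCA1, the LXR-driven exporter of cholesterol to apolipoprotein A-I, was at or below 0.13 in every library, an estimated 2 to 12 fragments, and was not tested.

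The fatty acid branch had a median log2 fold change of 0.02 over 8 genes, 5 higher and 3 lower. ACLY, which supplies cytosolic acetyl-CoA to both branches, stood at 105.96 and 102.56 in shCtrl, against 115.11 and 100.76 in shTBX3. FASN, fatty acid synthase, had the highest level of all 35 genes, at 226.81 and 249.29 in shCtrl, against 220.36 and 268.45 in shTBX3. In both genes the shTBX3 range contained the shCtrl range, and the 95% intervals of the log2 fold change ran from −0.26 to 0.35 and from −0.31 to 0.38.

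ACACA, acetyl-CoA carboxylase, stood at 12.16 and 15.61 in shCtrl, against 15.62 and 15.65 in shTBX3. The groups were apart only by 15.62 against 15.61, and the log2 fold change of 0.17 became 0.00 without shCtrl replicate 1 and 0.34 without shCtrl replicate 2. SCD, the stearoyl-CoA desaturase, stood at 184.25 and 254.10 in shCtrl, against 147.17 and 184.80 in shTBX3. The second shTBX3 value exceeded the first shCtrl value by a small margin, so the groups overlapped. SCD had means of 219 ± 49.4 and 166 ± 26.6 (SD, n = 2 each) and the lowest log2 fold change of the branch, −0.39 ± 0.20 (SE), with a limma adjusted p of 0.832. ELOVL6, an elongase, stood at 8.07 and 7.70 against 7.35 and 7.33, without overlap. LPIN1, a phosphatidate phosphatase, stood at 9.37 and 11.50 against 11.60 and 11.79. Its groups were apart only by 11.60 against 11.50, with a limma adjusted p of 0.932. FADS1 and FADS2, the delta-5 and delta-6 desaturases, were low, with means of 2.83 and 2.54 for FADS1 and 3.87 and 3.94 for FADS2. These neighbours lie on opposite strands of chromosome 11 with overlapping annotated exons.

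**Figure D3:**
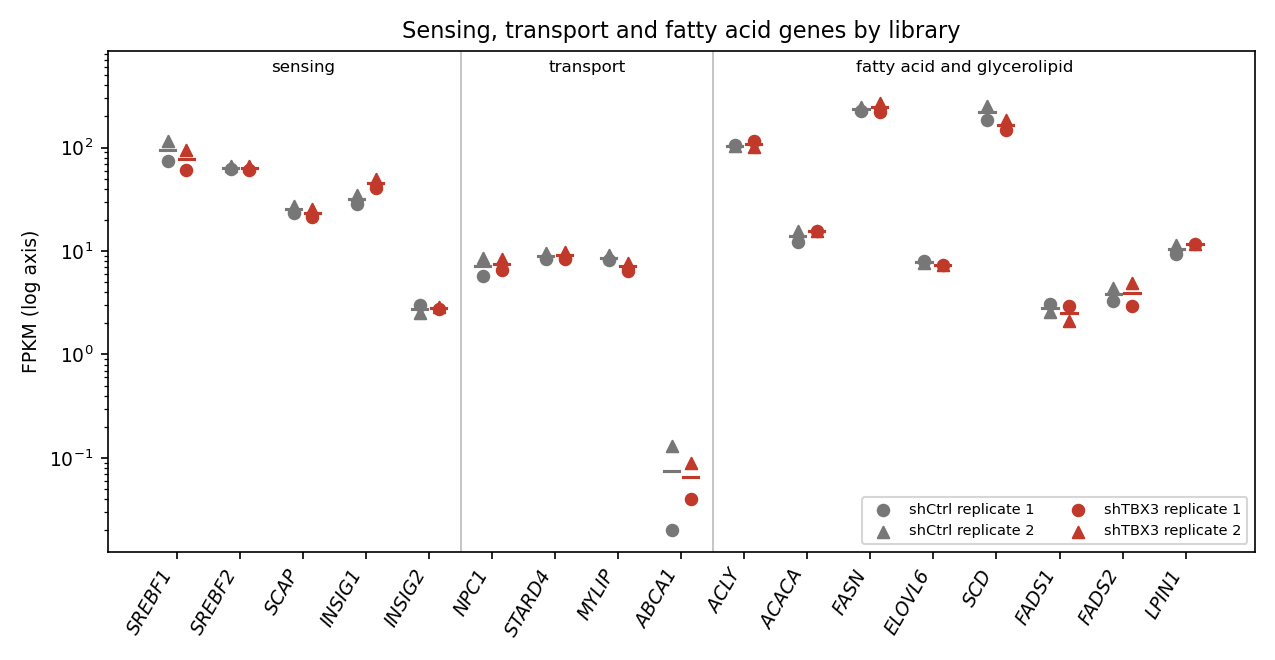
FPKM (log axis) of the 17 genes of sterol sensing, transport and fatty acid synthesis in the 4 libraries, shCtrl in grey and shTBX3 in red, replicate 1 as circles and replicate 2 as triangles; bars are group means. INSIG1 has both red points above both grey points, SREBF1 shows a wider gap between replicates than between groups, and ABCA1 stays at or below 0.13.

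Set side by side, the sterol branch had a median log2 fold change of 0.13 over 18 genes (13 higher, or 72.2%, and 5 lower, with 46.9% of all genes higher) and the fatty acid branch of 0.02 over 8. The difference of the medians was 0.11. A related measure is the gap between the branch medians within each library, after the centring given below. Its SD between replicates of a group was 0.15. When the libraries were scaled to the same median, 15 of the 18 sterol genes were higher and 3 lower. That scaling also moved the median over all genes from −0.0144 to 0.0315, and the difference of the branches was 0.12. The share of all genes that were higher under it was not counted. SREBF2 turned positive under that scaling, under upper quartile scaling and under quantile normalization. Each gene was also centred on its mean over the 4 libraries. The median sterol gene then stood at −0.03 and −0.14 in shCtrl replicates 1 and 2 and at 0.19 and −0.00 in shTBX3 replicates 1 and 2. For the fatty acid branch the same values were −0.06, 0.05, 0.01 and 0.03. The sterol branch was thus highest in shTBX3 replicate 1, where 13 of 18 genes had their highest value, with 26.6% of all genes doing so. Without shTBX3 replicate 1, 10 of the 18 sterol genes were higher, their median was 0.05 and the difference of the branches was −0.01. The median and the difference were 0.08 and 0.01 without shCtrl replicate 2, 0.20 and 0.23 without shCtrl replicate 1, and 0.27 and 0.29 without shTBX3 replicate 2. The share of all genes that were higher was not counted with a library left out. The median over all genes was −0.0184 without shTBX3 replicate 1.

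**Figure D4:**
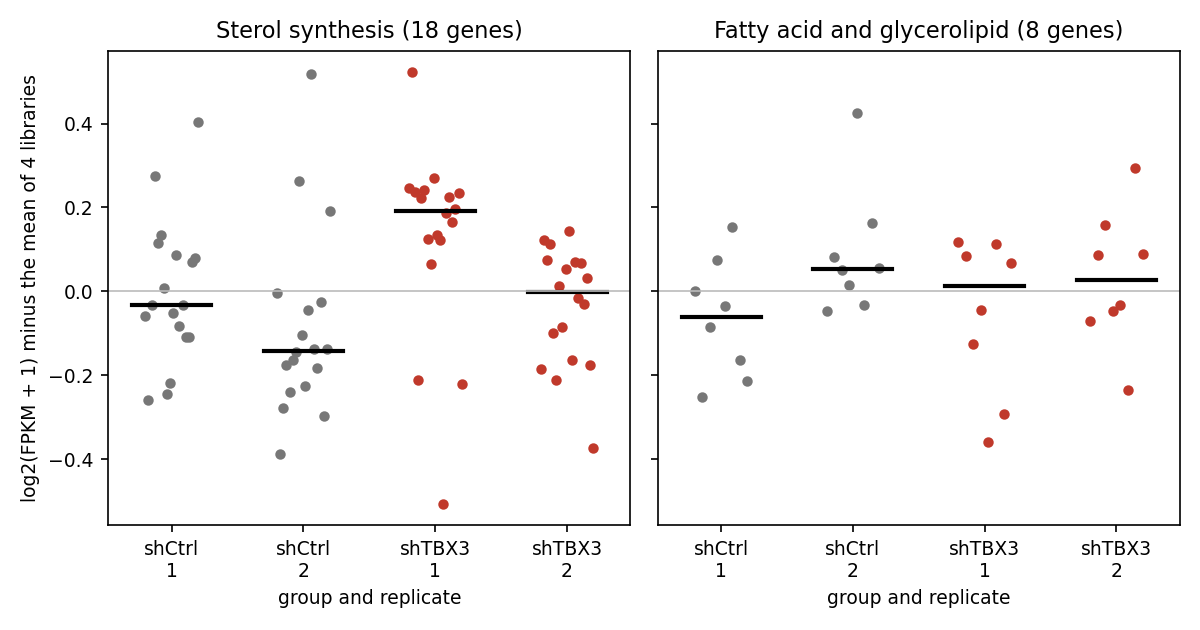
Log2(FPKM + 1) of each gene minus its mean over the 4 libraries (y axis) for the 18 sterol synthesis and 8 fatty acid genes, by group and replicate (x axis); points are genes and black lines medians. The sterol median is 0.19 in shTBX3 replicate 1 and −0.14 in shCtrl replicate 2, while the fatty acid medians stay between −0.06 and 0.05.

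By summed FPKM, the sterol enzymes held 722 and 697 in shCtrl, against 793 and 706 in shTBX3. The fatty acid genes held 553 and 648 in shCtrl, against 523 and 596 in shTBX3. Most of the fatty acid sum in every library came from FASN and SCD (226.81 and 184.25 in shCtrl replicate 1). It therefore describes mainly those genes. The ratio of the sums was 1.30 and 1.08 in shCtrl, against 1.51 and 1.18 in shTBX3, and the groups overlapped. The replicate 1 library had the higher ratio in each group.

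Replicates were also compared within each group. In 11 of 18 sterol synthesis genes (61.1%) replicate 2 was below replicate 1 in both groups, with 32.3% of all genes, and TM7SF2 was the 1 sterol gene with replicate 2 above in both, with 33.2% of all genes. Replicate 2 was above replicate 1 in both groups in SREBF1, SREBF2, SCAP and INSIG1, in NPC1, STARD4 and MYLIP, and in 5 of 8 fatty acid genes. SREBF1 was 1.54-fold and 1.55-fold higher in replicate 2 of shCtrl and shTBX3, FADS2 1.33-fold and 1.67-fold, and SCD 1.38-fold and 1.26-fold. IDI1 in replicate 2 was 0.805 and 0.720 of replicate 1, and MVD 0.773 and 0.792. The labels do not say what the replicate number stands for.

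**Figure D5:**
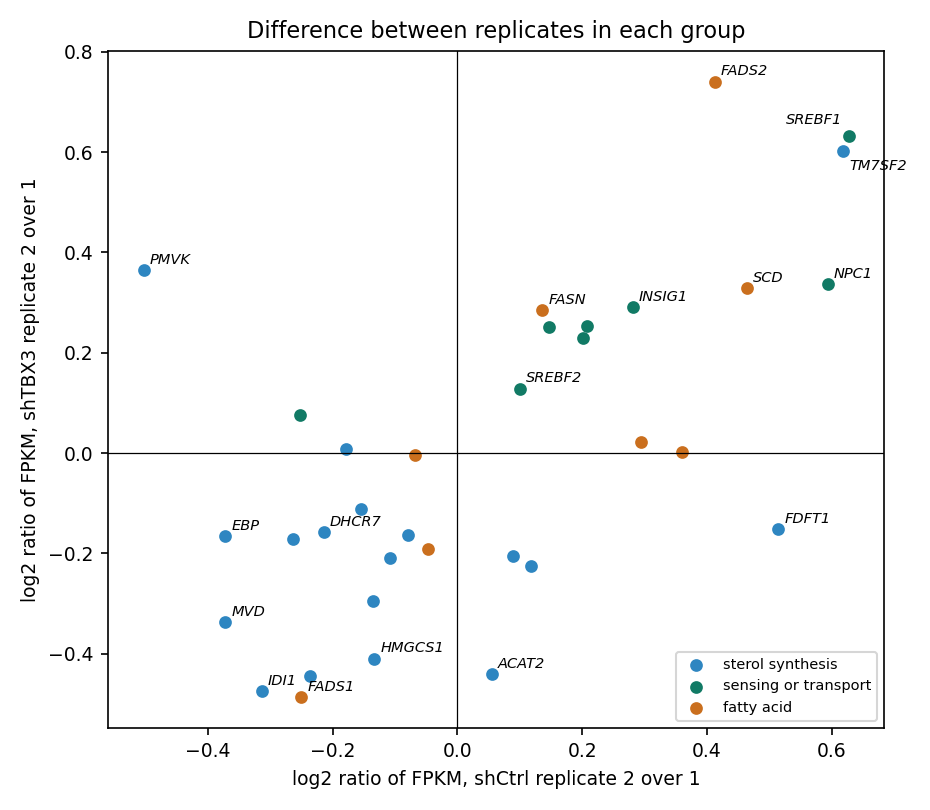
Log2 ratio of FPKM in replicate 2 over replicate 1 within shCtrl (x axis) and within shTBX3 (y axis) for the 34 genes tested, coloured by branch, with some genes named. Most sterol synthesis genes lie in the lower left, 11 of 18 being below 0 on both axes, and SREBF1, FADS2, SCD and TM7SF2 lie in the upper right.

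Ordered by mean FPKM over the 4 libraries, FASN came first, followed by SCD, FDPS and ACLY. FASN and SCD overlapped in their values over libraries, as did SCD and FDPS. ACLY lay below FDPS in every library, and SREBF1, which came next, overlapped ACLY. Most other sterol enzymes lay at an FPKM of 10 to 100, while INSIG2, FADS1 and FADS2 were the lowest genes tested and ABCA1 was below all of them.

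A wider list of 98 genes of the same pathways, of which 92 were in the table and 83 tested, gave the surroundings. In shTBX3 44 were higher (53%, with 46.9% of all genes) and 39 lower, with a median log2 fold change of 0.01 and no gene past limma's threshold. At an unadjusted p under 0.05 there were 0 higher, with 2.03% of all genes, and 6 lower (7.23%), with 4.65% of all genes. The 2 with the largest differences handle cholesteryl esters. LIPA, the lysosomal lipase that frees cholesterol from lipoprotein esters (GRCh37 chromosome 10, 90973326 to 91174314, minus strand), had an FPKM of 25.48 and 26.63 in shCtrl, against 13.75 and 13.11 in shTBX3. SOAT1, which esterifies cholesterol in the endoplasmic reticulum (GRCh37 chromosome 1, 179262849 to 179327815, plus strand), stood at 6.82 and 7.21 in shCtrl, against 3.54 and 3.27 in shTBX3. In both genes the replicates lay close together, and the shTBX3 means were 1.94-fold and 2.06-fold lower. Their log2 fold changes were −0.91 ± 0.13 and −0.86 ± 0.15 (SE), with limma adjusted p of 0.105 for LIPA and 0.171 for SOAT1.

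The other 4 had adjusted p of at least 0.458. PDSS2, a subunit of the enzyme that builds the ubiquinone tail, stood at 11.33 and 12.66 against 6.47 and 8.43. GPAT4, a glycerol-3-phosphate acyltransferase, stood at 12.18 and 13.27 against 9.20 and 7.91. LBR, a lamin receptor that is also a sterol C14 reductase like TM7SF2, stood at 42.30 and 38.45 against 32.64 and 29.16. HACD2, a dehydratase of very long chain fatty acid elongation, stood at 41.58 and 45.77 against 34.26 and 33.18. None of these 4 overlapped between the groups. All 6, LIPA and SOAT1 included, were picked for an unadjusted limma p under 0.05 in the same libraries. That choice already favours close replicates and groups that lie apart. The lack of overlap and the closeness of replicates therefore add no separate support. The same holds for HMGCS1, INSIG1 and DHCR7, named above at the same limit on p. Of the wider list, 22.9% of the genes tested had shTBX3 values wholly under the shCtrl range, with 19.7% of all genes. Another 12% had them wholly over that range, with 14.8% of all genes.

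By role, 6 of 11 accessory sterol enzymes were higher in shTBX3, as were 6 of 10 genes of SREBP processing and reductase turnover, whose log2 fold changes stayed between −0.22 and 0.16. Of 6 LXR factors and targets 2 were higher, with a median of −0.19. Of 14 genes of sterol transport, esterification and lipoprotein uptake 6 were higher, of 11 isoprenoid users 8, of 19 fatty acid genes 10 and of 12 glycerolipid genes 6. Medians of these last 4 groups were −0.10, 0.03, 0.01 and 0.02.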

How the data were processed

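The authors deposited 1 table of FPKM for 4 libraries (2 shCtrl and 2 shTBX3), per the file headers. HISAT, Bowtie2, RSEM and hg19 are named in the submitters' processing notes, without versions, while the sources used here do not give strand, filters or annotation release. Because FPKM is relative to transcript length and library total, abundant genes shift all others and near-identical copies share fragments by estimate.

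A gene was tested if 2 or more libraries reached an FPKM of 1. The test was limma 3.58.1 (R 4.3.3) on log2(FPKM + 1), two-sided, with eBayes and an intensity trend and Benjamini-Hochberg adjustment, a fit tested on simulated data. Fold changes on this scale are understated for low genes, and ratios are of mean FPKM. The labels name no separate cultures for the replicates, and the spread between libraries that p-values rest on may therefore be technical. Genes and lists were chosen with earlier results of these data known. By rule, values in every library were given for the 5 sensing genes, for the genes of each role with the 2 smallest p or with p under 0.05, for other pathway genes with p under 0.05 and for TBX3. Values of further genes are shown to complete each role.

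Depth was fitted from 124 to 146 microRNA values of up to 6 fragments per library, of which 82.2% to 93.5% came out whole within 0.05 fragments, with RefSeq lengths less 37 bases. Fragments per gene used the canonical GENCODE transcript (GRCh37). Promoters came from RefSeq (GRCh38.p14) and were read with Python 3.11.15. Protein sequences were not used here, and 1 thyroid marker is not reported here. The alternatives were other pseudocounts, filters, scalings and variance settings, the replicate number as a block and each library left out in turn.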

Additional observations from a re-analysis of the deposited data

How the results depend on the processing

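None of the 34 genes passed limma's threshold under any of the 14 alternatives. The smallest adjusted p among them was 0.0624 with the replicate number as a block (DHCR7) and at least 0.22 under every other alternative. HMGCS1, INSIG1 and DHCR7 kept their direction throughout. Their log2 fold changes were 0.45 to 0.84, 0.36 to 0.64 and −0.70 to −0.49 as single libraries were left out, and those of SCD −0.62 to −0.16. Without a filter LSS and NSDHL also had an unadjusted limma p under 0.05, as did SQLE under quantile normalization. LSS, NSDHL and SQLE all did so under median and upper quartile scaling. In each of those fits 6 of the 34 genes had an unadjusted limma p under 0.05, as did 900 and 898 of all 13924 genes. The median log2 fold change over all genes was 0.0315 and 0.0152 there, against −0.0144 in the main fit. With the replicate block, LSS, NSDHL, SQLE and MVK were also higher and SCD, SREBF1 and TM7SF2 lower at an unadjusted limma p under 0.05. Without shCtrl replicate 1 the log2 fold changes of SCD and SREBF1 were −0.62 and −0.60. At an unadjusted p under 0.05, INSIG1 was lost when shCtrl replicate 1 or shTBX3 replicate 2 was left out, and HMGCS1 without shTBX3 replicate 1.

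SREBF2 turned positive under median scaling (0.0497), quantile normalization (0.0037) and upper quartile scaling (0.031). As single libraries were left out, log2 fold changes changed sign for SREBF2 (−0.066 to 0.0605), SREBF1 (−0.60 to 0.026), SCAP (−0.24 to 0.0046), INSIG2 (−0.061 to 0.12) and NPC1 (−0.20 to 0.32). The sterol median ran from 0.0506 to 0.27, the fatty acid median from −0.03 to 0.06 and their difference from −0.009 to 0.29. The cause was not tested.

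Over all genes, 25 passed, with 7 at a pseudocount of 0.1, 0 without a filter (1249 at an unadjusted p under 0.05) and 12 to 55 as single libraries were left out. With the replicate block 132 passed (LIPA among them, log2 fold change −0.91, adjusted p = 0.033), and 10 of the 34 genes had an unadjusted p under 0.05, as did 1989 of the 13924 genes in that fit and 929 without the block. The difference between replicates 2 and 1 correlated between the groups at r = 0.26 across 13924 genes. No label ties libraries of the same number to each other, so this is only a hint from the data. Depth limits PMVK, INSIG2, FADS1 and FADS2, which rested on under 100 fragments in at least 1 library.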

Other observations

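Of the wider list, 9 genes were too low to test. ELOVL5, the elongase that acts beside FADS1 and FADS2 on polyunsaturated fatty acids, was listed at 0.04, 0, 0 and 0.04 in the 4 libraries, although the table names 5 transcripts for it. The saturated and monounsaturated elongases ELOVL6 (7.33 to 8.07) and ELOVL1 (67.27 to 79.91) had measurable levels, as did ELOVL7 (8.06 to 11.46). ELOVL2 and ELOVL3 stayed at or below 0.41. ELOVL5 is known to be widely expressed, and its listed values are not read here as absence of expression.

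PLIN2, a lipid droplet coat protein that many cultured cells make, was at 0.77 and 0.75 in shCtrl, against 0.35 and 0.52 in shTBX3. SOAT2 stood at or below 0.06 in every library, so SOAT1 was the form of acyl-CoA cholesterol acyltransferase with a measurable level. ABCG1, an LXR target like ABCA1, had its higher value in replicate 2 of each group, at 0.24 and 1.82 in shCtrl, against 0.04 and 0.64 in shTBX3.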
